A study of Mus musculus with 8 samples.

Results

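The endoplasmic reticulum (ER) genes described here encode the machinery that takes new secretory and membrane proteins into the ER, folds them there and answers when folding fails. The set is 40 genes named by function, all 40 of them were found among the 13388 genes measured, and all 40 passed the filter on low values. They comprise 9 genes of the Hsp70 and Hsp90 chaperone system, 6 of lectin chaperones and disulfide isomerases, 3 prolyl isomerases, 3 genes of stress sensing, 7 of ER-associated degradation, 7 of the translocon and its associated TRAP complex, and 5 of signal peptidase. RNA was sequenced from sorted bone marrow cells of wild-type mice, either common monocyte progenitors (cMoPs), the dividing precursors of monocytes, or Ly6C+ classical monocytes. Each cell type had spent 6 h in coculture with OP9 cells or OP9-DLL1 cells. OP9 is a stromal line from mouse bone marrow, and OP9-DLL1 cells are OP9 cells that carry DLL1, a ligand of Notch receptors, on their surface. The 4 groups were cMoPs on OP9-DLL1, cMoPs on OP9, monocytes on OP9-DLL1 and monocytes on OP9, with 2 libraries in each. The OP9 line is itself of mouse origin, so RNA of carried-over stromal cells would be counted with that of the cells studied.

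Proteins with a signal peptide enter the ER through the Sec61 channel, helped by the TRAP complex, and signal peptidase cuts the signal off. Inside, the Hsp70 protein BiP (Hspa5) and its cochaperones, the lectin chaperones calnexin and calreticulin, and protein disulfide isomerases fold the chain, while misfolded proteins go back to the cytosol through ER-associated degradation. When unfolded proteins build up, the sensors IRE1 (Ern1) and ATF6, together with PERK, start the unfolded protein response. IRE1 splices the Xbp1 messenger RNA, and XBP1 and ATF6 then raise transcription of chaperone genes through the ER stress response element. Xbp1 and its targets are best known for their part in plasma cells, and in myeloid progenitors the same machinery serves proteins bound for granules.

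The ER stress response element is shown here because it is the promoter sequence through which the chaperone genes of this set are known to be controlled together. The letters searched were CCAAT and CCACG with 9 bases of any kind between them for the element (ERSE), ATTGG and CCACG with 1 base between them for its second form (ERSE-II), and TGACGTGG for the core of the unfolded protein response element (UPRE), each on both strands. None of these 3 motifs is contained in another. The windows were RefSeq promoters of build GRCm38.p6, running from 250 bases before to 50 bases after the start of a transcript, and 32 of the 40 members had one. Below are the matches in 8 members with an ERSE and in 2 with an ERSE-II, printed 5′ to 3′ on the strand of the gene, with the fixed letters of the motif in capitals; a match that begins with CGTGG lies on the other strand.

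Hspa5: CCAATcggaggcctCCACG

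Hsp90b1, upstream match: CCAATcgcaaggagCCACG

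Hsp90b1, downstream match: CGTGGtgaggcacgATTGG

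Calr: CGTGGtcgaccctcATTGG

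Canx: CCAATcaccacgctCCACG

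Pdia6: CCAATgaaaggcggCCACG

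Dnajc3: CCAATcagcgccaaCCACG

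Creld2: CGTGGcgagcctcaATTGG

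Syvn1: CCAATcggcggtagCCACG

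Herpud1, ERSE-II: ATTGGgCCACG

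Dnajb11, ERSE-II: ATTGGcCCACG

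The ERSE was present in 8 of the 32 members with a promoter (25%), against 37 of the 27025 genes with a RefSeq promoter (0.137%). The element was searched because it is known to control chaperone genes of this set, so its higher share here is no separate result. The ERSE-II was present in 2 of the 32 (6.25%), against 12 of 27025 genes (0.0444%). The UPRE core was present in 0 of the 32 members and in 193 of 27025 genes (0.714%). In all 10 members held a match, and Hsp90b1 held a pair of them. A match describes letters and is not evidence of binding.

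The Hspa5 match lay at positions -65 to -47 from the start of the transcript, at chr2:34772025-34772043 on the plus strand. The pair in Hsp90b1 lay at positions -212 to -194 and -107 to -89, at chr10:86705638-86705656 and chr10:86705533-86705551 on the minus strand. Those 2 genes encode the main Hsp70 and Hsp90 chaperones of the ER, and their promoters are given in full for the 250 bases before the start (RefSeq, GRCm38.p6; Hspa5 at chr2:34771840-34772089, plus strand; Hsp90b1 at chr10:86705445-86705694, minus strand).

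Hspa5 promoter: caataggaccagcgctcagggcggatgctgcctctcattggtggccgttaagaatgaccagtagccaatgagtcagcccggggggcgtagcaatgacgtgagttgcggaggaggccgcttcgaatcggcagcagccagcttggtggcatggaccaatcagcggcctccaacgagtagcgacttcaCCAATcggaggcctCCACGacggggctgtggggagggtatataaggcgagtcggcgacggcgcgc

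Hsp90b1 promoter: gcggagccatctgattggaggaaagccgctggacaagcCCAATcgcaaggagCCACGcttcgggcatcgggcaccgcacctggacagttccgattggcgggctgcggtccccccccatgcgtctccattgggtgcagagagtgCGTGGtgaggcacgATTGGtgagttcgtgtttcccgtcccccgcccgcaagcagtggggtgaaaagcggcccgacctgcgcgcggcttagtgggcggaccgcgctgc

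**Figure D1:**
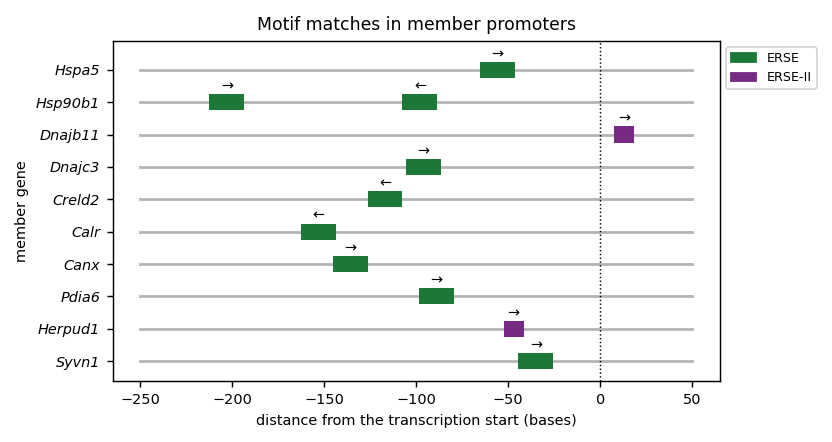
Motif matches in the promoters of the 10 members that held one, with distance from the transcription start in bases on the x axis and 1 gene per row. Green boxes are ERSE and purple boxes ERSE-II matches, arrows give the strand relative to the gene, and every match except that of Dnajb11 lies before the start.

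Levels are in CPM, which scales the reads of a gene by its library's effective size, and log2 fold changes are given ± SE from 1 limma-trend fit over all 8 libraries. A gene is said to pass, rise or fall where its Benjamini-Hochberg adjusted p over 13374 tested genes was under 0.05. Recovered reads per library were 55868453 and 57732330 in cMoPs on OP9-DLL1, 62459962 and 51566715 in cMoPs on OP9, 51237246 and 52302602 in monocytes on OP9-DLL1, and 47316323 and 54282613 in monocytes on OP9. The Notch target Hes1, a check of the coculture, was at 2.92 and 3.13 CPM in cMoPs on OP9-DLL1 against 0.0529 and 0.0456 on OP9, and at 11.7 and 11.3 CPM in monocytes on OP9-DLL1 against 0.0346 and 0.0465 on OP9. In a check of the labels, 9 progenitor genes were together at 15210 to 22290 CPM in cMoPs against 879 to 2454 in monocytes, 7 of them higher and 1 lower in cMoPs on each stroma. Of 10 monocyte genes 8 were lower in cMoPs on both stromas, among them Ccr2 at 226 to 482 CPM in cMoPs against 1415 to 1927 in monocytes. The other 2, Cx3cr1 and Ly6c2, were higher in cMoPs, and Ly6c2, a gene of the Ly6C antigen used in the sort, was at 2065 to 2314 CPM in cMoPs against 872 to 1204 in monocytes. Whether the 2 libraries of a group came from different mice or cocultures is not in the labels, and p-values then measure only how far these samples differ, which may be technical.

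The 40 genes together summed to 14280 and 14700 CPM in cMoPs on OP9-DLL1, 12770 and 13290 in cMoPs on OP9, 9437 and 9270 in monocytes on OP9-DLL1, and 12860 and 11310 in monocytes on OP9. The 2 monocyte libraries on OP9-DLL1 were thus the lowest of the 8. The 9 chaperone system genes summed to 3556 and 3560 CPM in cMoPs on OP9-DLL1, 3239 and 3251 in cMoPs on OP9, 1812 and 1814 in monocytes on OP9-DLL1, and 3020 and 2583 in monocytes on OP9. Signal peptidase genes summed to 1948 and 1819, 1665 and 1766, 1428 and 1378, and 2182 and 1643 CPM in the same order of groups. In bulk RNA, fewer cells of a type and less RNA per cell cannot be told apart.

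Per kilobase of merged exon length, the most abundant members were Pdia6, a disulfide isomerase, at 265 to 415 CPM per kb over the 4 group means, Sec61b, a subunit of the channel, at 339 to 379, and Hspa5 at 194 to 397. Among the least abundant was the sensor Ern1 at 0.440 to 0.773 CPM per kb, and the BiP cochaperone Dnajb9 was at 1.35 to 3.14. In monocytes the prolyl isomerase Fkbp11 was lower than Ern1, at 0.256 CPM per kb on OP9-DLL1 and 0.543 on OP9, against 30.2 and 31.1 in cMoPs on OP9-DLL1 and on OP9.

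**Figure D2:**
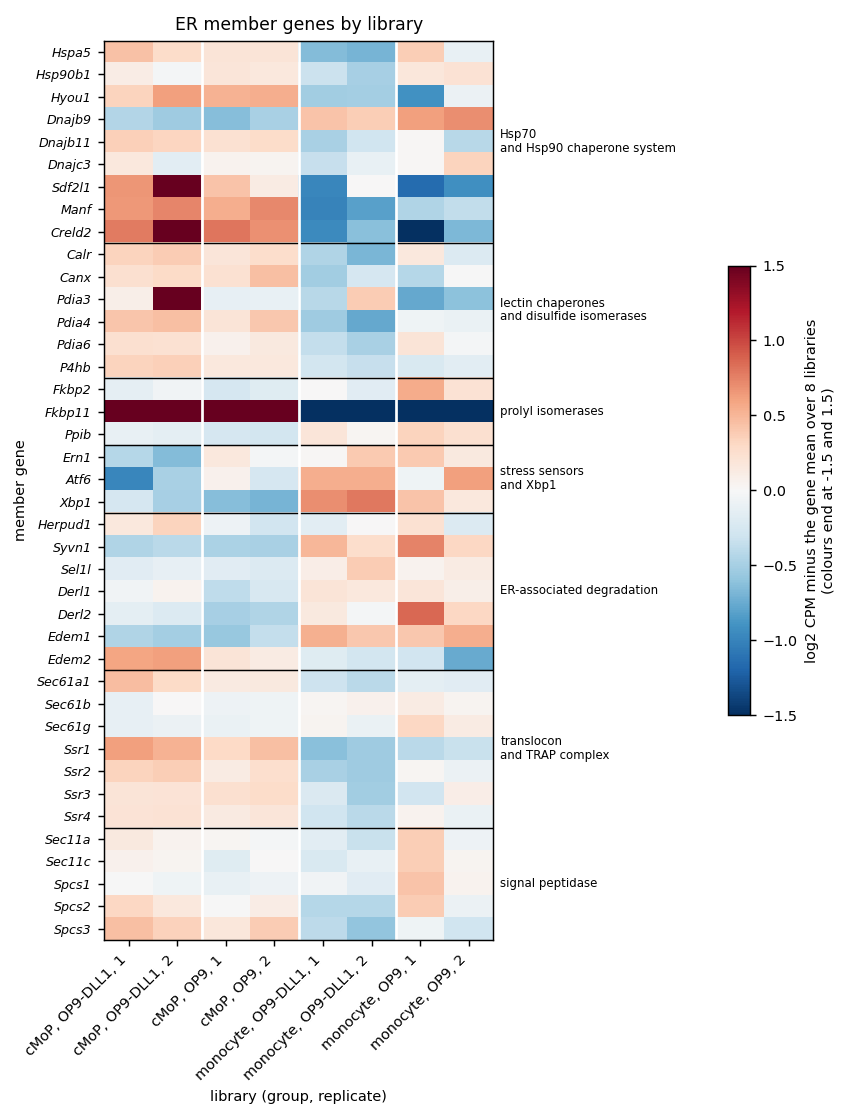
Level of each of the 40 genes in each of the 8 libraries, as log2 CPM minus the gene's mean over all libraries, with genes grouped by role on the y axis. Colours end at -1.5 and 1.5, red is above and blue below the gene's mean. Fkbp11 is beyond the scale in every library, and the rows of Hspa5, Hsp90b1, Manf, Calr, Pdia4, Pdia6 and Ssr2 are lowest in the monocyte libraries on OP9-DLL1.

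The coculture comparison asks what contact with DLL1 changed within a cell type. In monocytes 7 of the 40 genes fell on OP9-DLL1 and 0 rose, and those that fell are chaperones, disulfide isomerases and 1 TRAP subunit. Of all 13374 genes 6.39% passed in this comparison, 3.36% higher and 3.03% lower, so that 17.5% of the members against 3.03% of all genes were lower. Of the 855 genes that passed 52.6% were higher on OP9-DLL1, or 39.8% with libraries centred on their medians. The members' median log2 fold change was -0.23 against 0.01 over all genes, and 32 of the 40 were negative. In 22 members both libraries on OP9-DLL1 lay below both on OP9 (23.5% of all genes), and in 3 above both (24.2% of all genes). Without adjustment, 1 member was higher and 16 lower at p under 0.05, where 21.8% of all genes had such a p. Voom on the recovered reads called 0 higher and 8 lower, and voom with quality weights 0 and 5.

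Hspa5, which encodes BiP, the Hsp70 chaperone of the ER (chromosome 2, 34771970 to 34777547, plus strand), was at 831 and 806 CPM in monocytes on OP9-DLL1 against 1691 and 1214 CPM on OP9. The groups did not overlap, and the OP9 libraries lay further apart than those on OP9-DLL1. Its log2 fold change was -0.81 ± 0.15 (limma-trend adjusted p = 0.0164). In cMoPs Hspa5 was at 1781 and 1578 CPM on OP9-DLL1 against 1490 and 1491 on OP9. The monocytes on OP9-DLL1 were the group with libraries under 1214 CPM.

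Hsp90b1, the ER form of Hsp90 (chromosome 10, 86690209 to 86705509, minus strand), was at 602 and 534 CPM in monocytes on OP9-DLL1 against 853 and 879 CPM on OP9. Its log2 fold change was -0.61 ± 0.11 (adjusted p = 0.0119), the smallest p of the 40 in this comparison. Manf, a BiP-binding protein secreted under ER stress (chromosome 9, 106838312 to 106891979, minus strand), was at 132 and 150 CPM on OP9-DLL1 against 195 and 206 CPM on OP9, a log2 fold change of -0.50 ± 0.12 (adjusted p = 0.0368). It overlaps Rbm15b on its own strand and Dcaf1 on the other, as Hsp90b1 and Ssr2 each overlap a pseudogene on the other strand. Libraries of this kit carry no strand information, and overlapping genes cannot be told apart.

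Among the lectin chaperones and disulfide isomerases 3 of 6 fell. Calr, calreticulin (chromosome 8, 84841850 to 84846934, minus strand), was at 443 and 378 CPM in monocytes on OP9-DLL1 against 677 and 526 CPM on OP9, with a log2 fold change of -0.55 ± 0.14 (adjusted p = 0.0499). The disulfide isomerase Pdia4 (chromosome 6, 47796141 to 47813430, minus strand) was at 174 and 149 CPM on OP9-DLL1 against 243 and 236 CPM on OP9, with -0.57 ± 0.12 (adjusted p = 0.0269). Pdia6 (chromosome 12, 17266545 to 17284770, plus strand), a disulfide isomerase that binds BiP and IRE1, was at 1034 and 947 CPM on OP9-DLL1 against 1510 and 1296 CPM on OP9, with -0.50 ± 0.11 (adjusted p = 0.0323). All 3 had both libraries on OP9-DLL1 below both on OP9. Canx, calnexin, the membrane-bound partner of calreticulin, did not pass at -0.18 ± 0.16, nor did P4hb, the archetypal disulfide isomerase, at -0.12 ± 0.10.

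Of the translocon and TRAP genes Ssr2, the beta subunit of TRAP (chromosome 3, 88575876 to 88588419, plus strand), fell. It was at 408 and 394 CPM in monocytes on OP9-DLL1 against 587 and 537 CPM on OP9 (log2 -0.48 ± 0.10, adjusted p = 0.0272). The other TRAP subunits were at log2 fold changes of -0.21 ± 0.11 (Ssr1), -0.27 ± 0.15 (Ssr3) and -0.33 ± 0.10 (Ssr4), and the 3 channel subunits between -0.25 and -0.04, none of which passed. All 5 signal peptidase genes were negative, from -0.57 ± 0.15 for Spcs2 (adjusted p = 0.0575) to -0.32 ± 0.14 for Spcs3. None of the 5 passed by limma-trend, all 5 had an unadjusted p below 0.05, and each voom fit called 1 lower. Spcs2 was at 441 and 442 CPM on OP9-DLL1 against 769 and 556 CPM on OP9, so the OP9 libraries again differed more from each other.

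None of the 3 stress sensing genes passed by limma-trend (1 higher without adjustment at p under 0.05, 0 in either voom fit). Xbp1, the transcription factor made active by IRE1 splicing (chromosome 11, 5520659 to 5525893, plus strand), was at 149 and 159 CPM in monocytes on OP9-DLL1 against 123 and 103 CPM on OP9, a log2 fold change of 0.45 ± 0.14 (95% interval 0.14 to 0.76, adjusted p = 0.0883). Its libraries on OP9-DLL1 were both above those on OP9. Atf6 was at 36.6 and 36.5 CPM on OP9-DLL1 against 23.9 and 38.3 CPM on OP9, and Ern1 at 5.29 and 6.88 against 6.87 and 5.78 CPM, and in both genes the groups overlapped. Counts per gene do not separate spliced from unspliced Xbp1. In ER-associated degradation 0 of 7 genes passed by limma-trend (1 lower without adjustment at p under 0.05, 0 in either voom fit), with Derl2, a part of the export channel, lowest at -0.53 ± 0.17 and Edem2, which trims mannose from misfolded glycoproteins, highest at 0.29 ± 0.15.

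**Figure D3:**
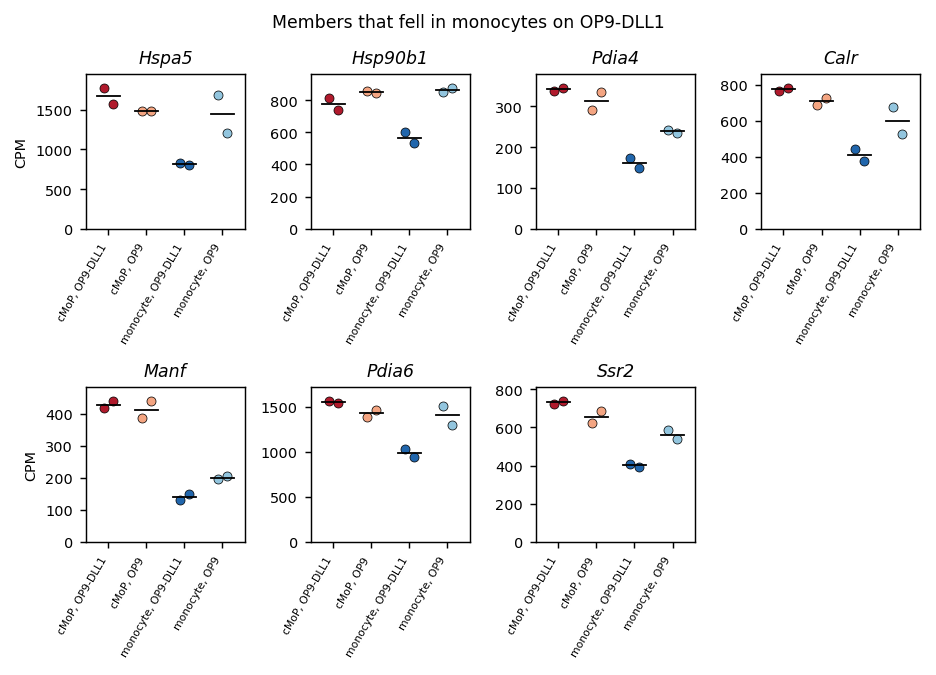
CPM of the 7 members that fell in monocytes on OP9-DLL1, with the 4 groups on the x axis, each point a library and each bar the mean of 2. In every panel both dark blue points (monocytes on OP9-DLL1) lie below the light blue points (monocytes on OP9) and below all 4 cMoP libraries.

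These calls were not firm. Without either of the monocyte libraries on OP9-DLL1 1 member fell, without 1 cMoP library 2 or 3 fell, and without monocytes on OP9 replicate 2 the count was 17. Without monocytes on OP9 replicate 1, 2 members were higher. Hspa5 lost the call without either OP9-DLL1 monocyte library (with adjusted p up to 0.13), Hsp90b1 without replicate 2 (0.132), and the other 5 without either of them (at most 0.192 to 0.318). Manf, Pdia6 and Ssr2 also lost it without any 1 of the cMoP libraries, Pdia4 without any of these except cMoPs on OP9 replicate 1, and Calr without any of these or monocytes on OP9 replicate 1. With both OP9-DLL1 replicate 2 libraries left out, an alternative chosen after seeing the data, 0 members fell. The authors' deposited table had 5 members lower and 0 higher at an adjusted p under 0.05, and 4 of these were among the 7: Hspa5 (adjusted p = 0.00665), Hsp90b1 (0.0131), Pdia6 (0.0278) and Ssr2 (0.0374), with Spcs2 (0.0474) the fifth.

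Markers of other cells differed between the same monocyte libraries, and not all in 1 direction. The 9 stroma genes measured of 20 listed had summed levels of 6.78 and 24.2 CPM in monocytes on OP9-DLL1 against 41.9 and 36.2 CPM on OP9, with Col1a1, a defining collagen gene, at 0.0718 and 0.922 against 1.44 and 1.85 CPM (log2 -2.67 ± 1.26, not passed). The 1 stroma gene that passed by limma-trend rose, Pdgfrb, at 2.91 and 4.24 CPM on OP9-DLL1 against 0.0346 and 0.214 CPM on OP9, and 0 passed as lower (2 lower without adjustment at p under 0.05, 2 by voom and 1 by its weighted form). Megakaryocyte and erythroid genes (3 measured of 10) summed to 24.6 and 15.7 CPM on OP9-DLL1 against 114 and 196 CPM on OP9. Of these, 2 passed as lower and 0 as higher, by limma-trend and in each voom fit. Neutrophil genes (9 of 10) summed to 1610 and 1611 against 1945 and 2408 CPM, though 1 neutrophil gene passed as higher and none as lower by limma-trend (2 lower without adjustment, 0 in either voom fit). Plasmacytoid dendritic cell genes (3 of 7) were together at 147 and 157 CPM on OP9-DLL1 against 143 and 126 CPM on OP9, and 1 of them passed as higher by limma-trend (0 in either voom fit). B and plasma cell genes (5 of 12) were together at 95.3 and 129 against 122 and 97.6 CPM, where the groups overlapped. The summed level of 15 proliferation genes was 1755 and 1901 CPM on OP9-DLL1 against 1057 and 2128 CPM on OP9, again with overlap. The part of these cells in the fall of the 7 genes was not tested.

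In cMoPs none of the 40 genes passed between OP9-DLL1 and OP9 by limma-trend, where 0.770% of all genes did (0.464% higher and 0.307% lower). Without adjustment, 5 members were higher and 2 lower at p under 0.05, a p that 9.47% of all genes had. Voom called 0 and voom with quality weights 1 higher, and without either of the monocyte libraries on OP9 limma-trend called 1 higher. The members' median log2 fold change was 0.12 against 0.01 over all genes, 30 of the 40 were positive, and both OP9-DLL1 libraries lay above both OP9 libraries in 25 members (25.0% of all genes) and below in 4 (21.7% of all genes). For the 7 genes that fell in monocytes the values in cMoPs ran from -0.13 ± 0.11 for Hsp90b1 to 0.17 ± 0.15 for Hspa5. The 95% interval for Hspa5 was -0.17 to 0.51.

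Furthest from 0 in cMoPs were Sdf2l1 (log2 0.96 ± 0.38, limma-trend adjusted p = 0.447) and Pdia3 (0.93 ± 0.40, adjusted p = 0.513). On OP9-DLL1 their replicate 2 was 2.23 and 2.75 times replicate 1. Some sensors and degradation genes came next, also without passing. Edem2 was at 177 and 180 CPM in cMoPs on OP9-DLL1 against 134 and 128 CPM on OP9 (log2 0.45 ± 0.15, adjusted p = 0.342). Atf6 was at 12.7 and 17.9 CPM on OP9-DLL1 against 26.1 and 21.1 CPM on OP9 (-0.63 ± 0.25, adjusted p = 0.439), and Ern1 at 3.87 and 3.32 against 5.84 and 5.14 CPM (-0.61 ± 0.24, adjusted p = 0.439). Herpud1, a stress-induced part of the degradation complex, was at 113 and 129 CPM on OP9-DLL1 against 96.6 and 83.1 CPM on OP9 (0.43 ± 0.16, adjusted p = 0.434). In all of these genes the groups did not overlap.

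The difference of the coculture responses, cMoPs minus monocytes, was tested in the same fit. None of the 40 genes passed by limma-trend, where 0.0523% of all genes did (0.0299% higher and 0.0224% lower). Without adjustment, 16 members were higher and 1 lower at p under 0.05, a p that 9.79% of all genes had, and both voom fits called 0. The median over the members was 0.37 on the log2 scale against -0.01 over all genes, and 34 of 40 were positive. The difference was 0.98 ± 0.21 for Hspa5 (adjusted p = 0.189), 0.65 ± 0.15 for Ssr2 (0.206) and 0.70 ± 0.17 for Pdia4 (0.236). The responses of the 2 cell types were thus not shown to differ for any member. Without monocytes on OP9 replicate 2, 13 members were higher and 1 lower, among 1123 genes in all, and without replicate 1 of that group 1 was higher.

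**Figure D4:**
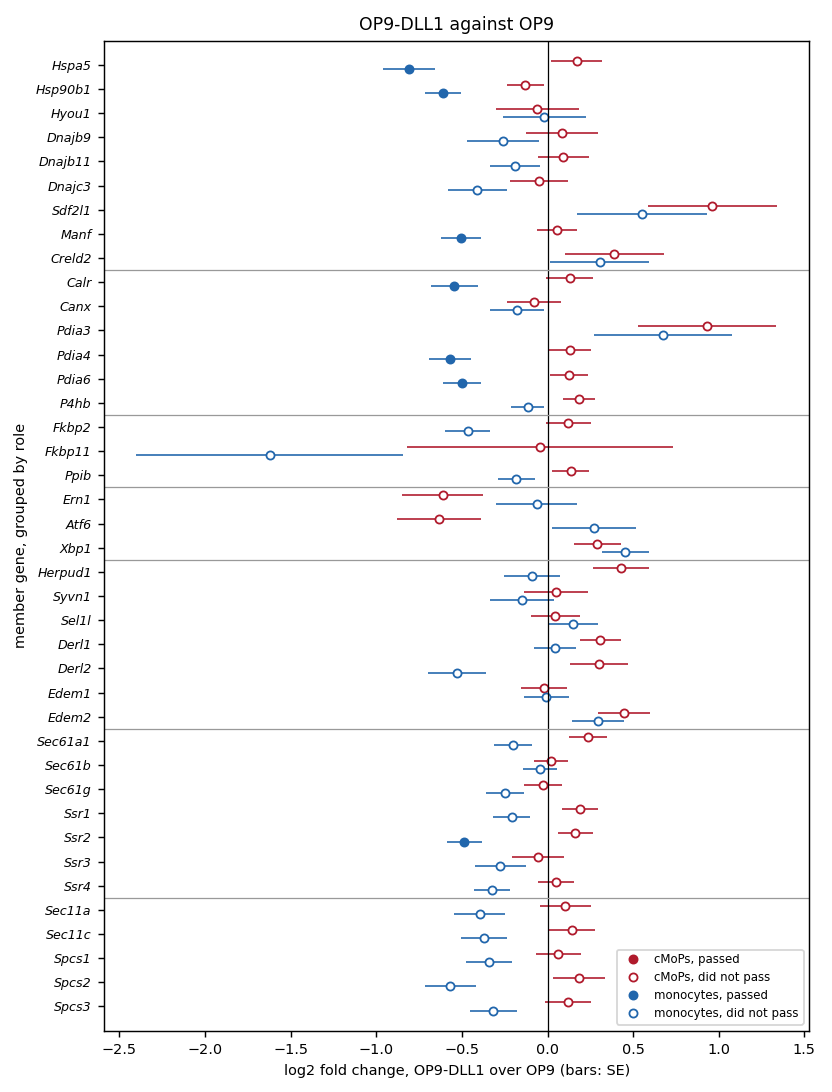
Log2 fold change of OP9-DLL1 over OP9 for each member on the x axis (bars are SE), in cMoPs (red) and monocytes (blue), grouped by role on the y axis. Filled points passed and open points did not; the 7 filled points are all in monocytes and all below 0.

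The cell type comparison asks how progenitors and mature monocytes differ on the same stroma. Most chaperone and TRAP genes were higher in cMoPs on OP9-DLL1, Fkbp11, Manf, Creld2 and Ssr1 were higher on both stromas, and Xbp1, Dnajb9, Syvn1 and Edem1 were lower on both. On OP9-DLL1 21 members were higher and 7 lower in cMoPs, 70.0% of the 40, where 57.4% of all genes passed (28.2% higher and 29.2% lower). On OP9 13 were higher and 9 lower, 55.0% of the 40, where 56.5% of all genes passed (28.8% higher and 27.7% lower). The members' median log2 fold change was 0.57 on OP9-DLL1 against -0.01 over all genes, and 0.00 on OP9 against 0.01 over all genes. The share of members that passed on OP9 was close to that of all genes.

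These 2 comparisons use different libraries. On both stromas 13 members were higher in cMoPs, 32.5% of the 40, where 23.2% of all genes were, and 4 were lower on both, where 23.1% of all genes were; 0 passed in opposite directions. The 13 were Hyou1, Dnajb11, Sdf2l1, Manf, Creld2, Canx, Pdia4, P4hb, Fkbp11, Edem2, Sec61a1, Ssr1 and Spcs3. Another 8 passed as higher on OP9-DLL1 and not on OP9, among them Hspa5, Hsp90b1, Calr, Pdia6 and Ssr2, which fell in monocytes on OP9-DLL1. That list is no separate result, since the same monocyte libraries enter both comparisons and the difference between stromas passed for 0 members.

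Fkbp11, a prolyl isomerase of the ER known from secretory cells (chromosome 15, 98724366 to 98728198, minus strand), differed most. It was at 85.7 and 77.5 CPM in cMoPs on OP9-DLL1 against 0.154 and 1.23 CPM in monocytes there, and at 85.6 and 82.5 CPM in cMoPs on OP9 against 0.866 and 2.07 CPM in monocytes on OP9. The log2 fold changes were 7.55 ± 0.78 on OP9-DLL1 (adjusted p = 4.22e-05) and 5.97 ± 0.78 on OP9 (adjusted p = 0.0002). In reads this was 4520 to 5664 in the 4 cMoP libraries against 7 to 111 in the 4 monocyte libraries. The other prolyl isomerases did not share this pattern. Ppib, cyclophilin B, was at 152 and 150 CPM in cMoPs on OP9 against 229 and 215 CPM in monocytes on OP9 (log2 -0.56 ± 0.11, adjusted p = 0.00197), and Fkbp2 at 253 and 265 against 441 and 347 CPM (-0.60 ± 0.13, adjusted p = 0.00436). On OP9-DLL1 neither passed by limma-trend, with log2 fold changes of -0.24 ± 0.11 for Ppib (adjusted p = 0.0832) and -0.01 ± 0.13 for Fkbp2. There voom with quality weights called 1 of the 3 prolyl isomerases lower, and Ppib had an adjusted p of 0.0415 in the authors' deposited table.

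In the chaperone system 7 of 9 genes were higher and 1 lower in cMoPs on OP9-DLL1, and 5 higher and 1 lower on OP9. Manf was at 416 and 439 CPM in cMoPs on OP9-DLL1 against 132 and 150 CPM in monocytes on OP9-DLL1 (log2 1.60 ± 0.12, adjusted p = 4.84e-06), and at 386 and 439 against 195 and 206 CPM on OP9 (1.04 ± 0.12, adjusted p = 7.65e-05). Creld2, a stress-induced ER protein with isomerase activity, was at 114 and 188 CPM in cMoPs on OP9-DLL1 against 34.5 and 43.4 CPM in monocytes on OP9-DLL1 (log2 1.92 ± 0.29), and at 116 and 108 against 23.5 and 41.8 CPM on OP9 (1.84 ± 0.29). In both genes every cMoP library was above every monocyte library. Hspa5 stood at 1.04 ± 0.15 on OP9-DLL1 (adjusted p = 0.000344) but at 0.06 ± 0.15 on OP9 (adjusted p = 0.765, 95% interval -0.28 to 0.40). Dnajb9, a BiP cochaperone induced by XBP1 and a brake on IRE1, ran the other way, at 3.77 and 3.52 CPM in cMoPs on OP9-DLL1 against 6.85 and 6.55 CPM in monocytes on OP9-DLL1 (log2 -0.88 ± 0.21), and at 3.26 and 3.62 against 7.79 and 8.23 CPM on OP9 (-1.22 ± 0.21).

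Among lectin chaperones and disulfide isomerases 5 of 6 were higher in cMoPs on OP9-DLL1 and 3 on OP9, and 0 were lower by limma-trend on either stroma (0 also without adjustment at p under 0.05 and in either voom fit). Pdia4 was at 337 and 346 CPM in cMoPs on OP9-DLL1 against 174 and 149 CPM in monocytes on OP9-DLL1 (log2 1.08 ± 0.12, adjusted p = 6.65e-05), and at 290 and 335 against 243 and 236 CPM on OP9 (0.38 ± 0.12, adjusted p = 0.0229). P4hb was at 1108 and 1131 CPM against 729 and 691 CPM on OP9-DLL1 (0.66 ± 0.10) and at 985 in both cMoP libraries against 750 and 789 CPM on OP9 (0.36 ± 0.10). Calr passed on OP9-DLL1 (0.92 ± 0.14) and not on OP9 (0.25 ± 0.14). Without cMoPs on OP9 replicate 2 the calls of Pdia4, P4hb and Canx on OP9 ended (with adjusted p up to 0.18, 0.0712 and 0.113), and that of P4hb also ended without replicate 1 of that group.

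All 3 stress sensing genes were lower in cMoPs on OP9-DLL1, and Xbp1 also on OP9. Xbp1 was at 77.0 and 64.7 CPM in cMoPs on OP9-DLL1 against 149 and 159 CPM in monocytes on OP9-DLL1 (log2 -1.12 ± 0.14, adjusted p = 0.00012), and at 58.9 and 56.5 against 123 and 103 CPM on OP9 (-0.96 ± 0.14, adjusted p = 0.000345). Every cMoP library was below every monocyte library. Atf6 (chromosome 1, 170704674 to 170867771, minus strand) was at 12.7 and 17.9 CPM against 36.6 and 36.5 CPM on OP9-DLL1 (-1.27 ± 0.25, adjusted p = 0.00186), and at 26.1 and 21.1 against 23.9 and 38.3 CPM on OP9, where the libraries overlapped (-0.37 ± 0.25, adjusted p = 0.226). Ern1 (chromosome 11, 106394650 to 106487852, minus strand) was at 3.87 and 3.32 CPM against 5.29 and 6.88 CPM on OP9-DLL1 (-0.75 ± 0.24, adjusted p = 0.0227) and did not pass on OP9 (-0.20 ± 0.24). The call of Ern1 ended without replicate 2 of either group on OP9-DLL1 (adjusted p up to 0.149).

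ER-associated degradation genes went in both directions, 1 higher and 3 lower on OP9-DLL1 and 1 higher and 4 lower on OP9. Edem1, which like Edem2 takes part in picking misfolded glycoproteins (chromosome 6, 108828641 to 108859356, plus strand), was at 33.7 and 32.3 CPM in cMoPs on OP9-DLL1 against 66.5 and 61.2 CPM in monocytes on OP9-DLL1 (log2 -0.95 ± 0.13, adjusted p = 0.000286), and at 31.1 and 36.1 against 61.1 and 67.2 CPM on OP9 (-0.94 ± 0.13, adjusted p = 0.00035). Its relative Edem2 (chromosome 2, 155701677 to 155729475, minus strand) was at 177 and 180 against 104 and 96.7 CPM on OP9-DLL1 (0.83 ± 0.15), and at 134 and 128 against 96.0 and 69.4 CPM on OP9 (0.68 ± 0.15). The 2 EDEM genes thus stood on opposite sides in all 4 cMoP libraries. Syvn1, the ubiquitin ligase HRD1 of the complex, was lower on both stromas (-0.81 ± 0.19 on OP9-DLL1 and -1.01 ± 0.19 on OP9), and overlaps Mrpl49 on the opposite strand. Derl2 was at 156 and 150 against 191 and 168 CPM on OP9-DLL1 (-0.23 ± 0.17) and at 122 and 126 against 313 and 213 CPM on OP9 (-1.06 ± 0.17, adjusted p = 0.000672), and overlaps Mis12. Sel1l, the partner of HRD1, lost its call on OP9-DLL1 without any 1 cMoP library or monocytes on OP9-DLL1 replicate 2 (-0.38 ± 0.14, adjusted p = 0.045, and up to 0.278), and Derl1 lost its call on OP9 without cMoPs on OP9 replicate 1 (-0.45 ± 0.12, at most 0.091).

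Of the 7 translocon and TRAP genes 5 were higher and 0 lower in cMoPs on OP9-DLL1 (limma-trend, 0 lower also without adjustment at p under 0.05 and in either voom fit), and 2 higher and 1 lower on OP9. Ssr1, the alpha subunit of TRAP (chromosome 13, 37966605 to 37994217, minus strand), was at 710 and 666 CPM in cMoPs on OP9-DLL1 against 300.0 and 322 CPM in monocytes on OP9-DLL1 (log2 1.15 ± 0.11, adjusted p = 2.13e-05), and at 573 and 637 against 350.2 and 369 CPM on OP9 (0.75 ± 0.11, adjusted p = 0.000327). Ssr2 was at 723 and 739 against 408 and 394 CPM on OP9-DLL1 (0.87 ± 0.10), and at 623 and 684 against 587 and 537 CPM on OP9 (0.22 ± 0.10, adjusted p = 0.0996). Sec61a1, the channel subunit itself, was at 284 and 251 against 167 and 155 CPM on OP9-DLL1 (0.73 ± 0.11, adjusted p = 0.000402), and at 225 and 228 against 186 and 184 CPM on OP9 (0.29 ± 0.11, adjusted p = 0.044). The small channel subunits differed less, Sec61b at -0.10 ± 0.10 on OP9-DLL1 and -0.16 ± 0.10 on OP9, and Sec61g at -0.08 ± 0.11 and -0.30 ± 0.11. The calls of Sec61a1 and Sec61g on OP9 (adjusted p = 0.0447 for Sec61g) ended without any 1 library other than those of monocytes on OP9 (at most 0.165 and 0.177), that of Sec61g also without monocytes on OP9 replicate 1, and that of Ssr3 on OP9-DLL1 (0.57 ± 0.15) without replicate 2 of either OP9-DLL1 group (at most 0.0873).

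In signal peptidase 2 of 5 genes were higher in cMoPs on OP9-DLL1 and 1 on OP9. Spcs3, an accessory subunit (chromosome 8, 54520433 to 54529998, minus strand), was at 163 and 153 CPM in cMoPs on OP9-DLL1 against 90.9 and 79.2 CPM in monocytes on OP9-DLL1 (log2 0.90 ± 0.14, adjusted p = 0.000442), and at 135 and 156 against 115 and 97.4 CPM on OP9 (0.46 ± 0.14, adjusted p = 0.0172). Spcs2 was at 734 and 661 against 441 and 442 CPM on OP9-DLL1 (0.66 ± 0.15), and at 589 and 639 against 769 and 556 CPM on OP9, where the groups overlapped. Spcs1 was at 274 and 263 against 265 and 244 CPM on OP9-DLL1 and at 253 and 260.0 against 367 and 283 CPM on OP9, and did not pass on either (0.08 ± 0.13 and -0.33 ± 0.13). The catalytic subunits Sec11a and Sec11c did not pass on either stroma by limma-trend. On OP9-DLL1 3 of the 5 genes were higher without adjustment at p under 0.05, 2 by voom and 3 by its weighted form. Sec11a there had a log2 fold change of 0.35 and an adjusted p of 0.0138 in the authors' deposited table. Without cMoPs on OP9 replicate 2 the call of Spcs3 on OP9 ended (with adjusted p up to 0.135).

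**Figure D5:**
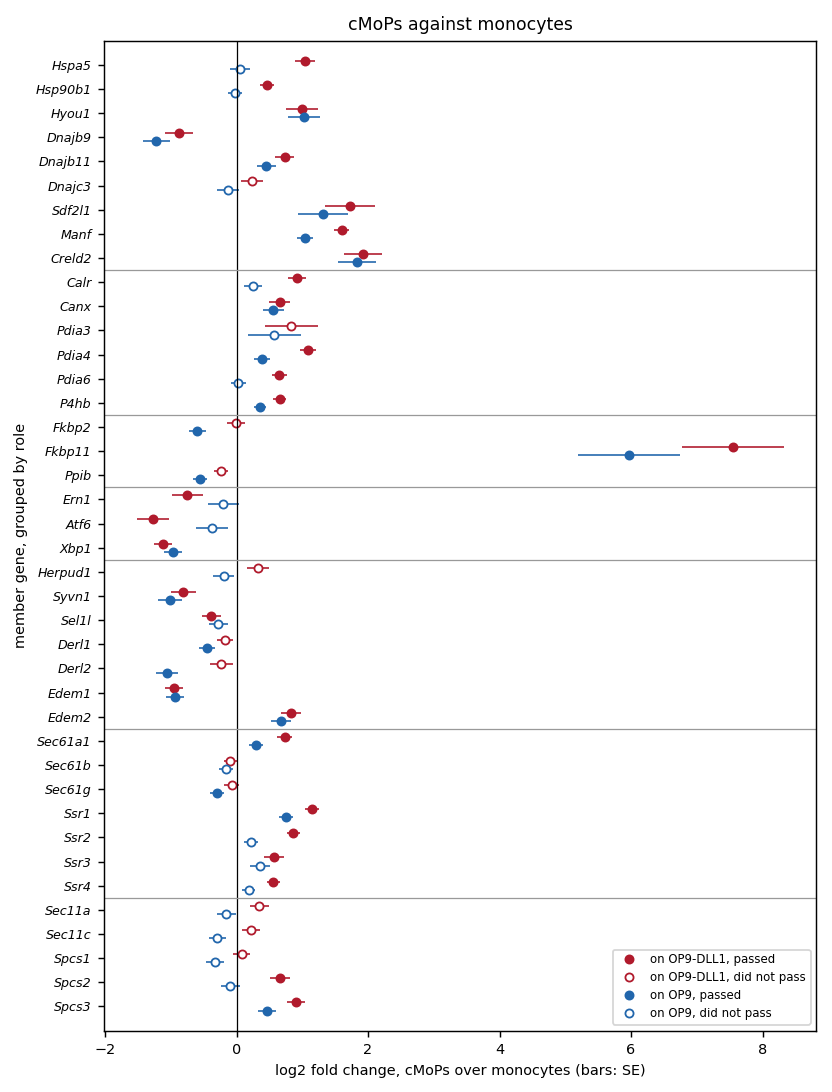
Log2 fold change of cMoPs over monocytes for each member on the x axis (bars are SE), on OP9-DLL1 (red) and on OP9 (blue), grouped by role on the y axis. Filled points passed and open points did not; Fkbp11 lies far to the right at 7.55 and 5.97, and Xbp1, Syvn1 and Edem1 lie to the left on both stromas.

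Of the members that passed, 15 of 28 on OP9-DLL1 and 13 of 22 on OP9 did so under every alternative setting run, and Manf, Creld2, Fkbp11, Xbp1, Edem1 and Ssr1 are in both sets. On OP9-DLL1 the calls of Hsp90b1 (without monocytes on OP9-DLL1 replicate 2 or cMoPs on OP9-DLL1 replicate 1, with an adjusted p of up to 0.0562), Hyou1 (without cMoPs on OP9-DLL1 replicate 2, 0.0549) and Canx (without monocytes on OP9-DLL1 replicate 1, 0.0618) ended. On OP9 those of Dnajb11 (without either cMoP library on OP9 or monocytes on OP9 replicate 2, at most 0.12) and Sdf2l1 (without cMoPs on OP9 replicate 1, 0.0879) ended. With both OP9-DLL1 replicate 2 libraries left out, 12 members were higher and 3 lower on OP9-DLL1. Without the mean-variance trend 7 rather than 13 were higher on OP9, as also without cMoPs on OP9 replicate 2. Without monocytes on OP9 replicate 2, 14 rather than 9 were lower on OP9.

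Other marker lists differed between the cell types as well. The 15 proliferation genes summed to 5101 and 4744 CPM in cMoPs on OP9-DLL1 and 4424 and 4412 on OP9, against 1755 and 1901 in monocytes on OP9-DLL1 and 1057 and 2128 on OP9. B and plasma cell genes (5 measured of 12) summed to 246 to 263 CPM in cMoPs against 95.3 to 129 in monocytes. Of the 5, 2 were higher and 2 lower in cMoPs on OP9-DLL1, where 28.2% and 29.2% of all genes were. On OP9 3 were higher and 1 lower, where 28.8% and 27.7% of all genes were. Ighm was at 184 to 208.5 CPM in cMoPs against 55.6 to 95.9 in monocytes, and Cd79b at 44.3 to 63.1 against 10.85 to 18.0. Prdm1 of the same list went the other way, at 0.301 to 1.41 CPM in cMoPs against 12.9 to 26.25 in monocytes. The plasma cell regulator Irf4 was at 0.0422 to 0.491 CPM in cMoPs against 0.289 to 1.21 in monocytes. Stroma genes summed to 3.79 to 6.998 CPM in cMoPs, against 6.78 to 41.9 in monocytes, and neutrophil genes to 550 to 627 CPM in cMoPs against 1610 to 2408 in monocytes. Of the 9 neutrophil genes measured, 1 was higher and 4 lower in cMoPs on OP9-DLL1, and 0 and 5 on OP9 by limma-trend. Mmp8 was at 6.71 to 15.8 CPM in cMoPs against 534 to 1520 in monocytes, while S100a8 overlapped, at 242 to 375 against 251 to 347 CPM. Megakaryocyte and erythroid genes summed to 7.04 to 20.9 CPM in cMoPs against 15.7 to 196 in monocytes. Of the 3 measured, 2 were lower in cMoPs on each stroma (Pf4 and Ppbp) and 1 higher. The higher gene was Car2, at 6.385 to 19.0 CPM in cMoPs against 1.01 to 2.98 in monocytes. Of T and NK cell genes 2 of 9 were measured, Nkg7 at 178 to 321 CPM in cMoPs against 0.958 to 1.93 in monocytes and Lck at 0.343 to 1.72 against 0.0924 to 0.450. The part of other cell types in the differences between cMoPs and monocytes was not tested.

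The rest of the pathway was read from 8 further lists with 105 tested genes. In monocytes on OP9-DLL1 7 of the 105 fell and 1 rose, where 3.03% of all genes fell and 3.36% rose. They were Sec63, which recruits BiP to the channel (log2 -0.93 ± 0.18), the oligosaccharyltransferase genes Stt3b (-0.55 ± 0.13), Krtcap2 (-0.40 ± 0.10) and Ostc (-0.50 ± 0.13), the cyclophilin Ppic (-1.51 ± 0.35), the degradation factor Selenos (-0.71 ± 0.12) and Eif2s1, which encodes the translation factor that PERK phosphorylates (-0.74 ± 0.10). The gene that rose was Pdgfrb (5.35 ± 0.93), which stands in the list of IRE1-cleaved transcripts and is also a stroma marker, at 2.91 and 4.24 CPM on OP9-DLL1 against 0.0346 and 0.214 CPM on OP9. Eif2s1 was at 194 and 198 CPM on OP9-DLL1 against 332 and 321 CPM on OP9, and Sec63 at 19.2 and 16.9 against 33.9 and 34.4 CPM. In both genes the groups did not overlap. Ppic was under 1 CPM in every monocyte library, at 0.277 and 0.204 CPM on OP9-DLL1 against 0.566 and 0.809 CPM on OP9. It passed the filter on low values only through the cMoPs, and neither voom fit called it lower in monocytes. The median over the 105 genes was -0.15 on the log2 scale, and voom called 1 higher and 7 lower, voom with quality weights 0 and 4.

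By list, to be read against the same 3.03% of all genes, oligosaccharyltransferase, which adds sugar chains to proteins entering the ER, had 3 of 11 genes lower, and the signal recognition particle and translocation list 1 of 12. Other folding enzymes had 1 of 22 lower (Ppic, with 0 lower in either voom fit), other degradation genes 1 of 19 and the PERK branch 1 of 12. ER to Golgi transport had 0 of 18 (limma-trend, 0 higher and 5 lower without adjustment at p under 0.05, 1 lower in each voom fit), with Tmed10 at -0.61 ± 0.16 and Sar1a at -0.40 ± 0.11. The proteases and Creb3 family list also had 0 of 7 (0 higher and 2 lower without adjustment at p under 0.05, 0 in either voom fit), with Creb3l1 at -1.20 ± 0.50 and Creb3 at -0.32 ± 0.14. In cMoPs 0 of the 105 genes passed between OP9-DLL1 and OP9, and 0 in the difference of responses (limma-trend). Without adjustment these were 3 higher and 4 lower in cMoPs, and 14 higher and 2 lower in the difference, with 0 in either voom fit.

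Between cell types 36 of the 105 genes were higher and 20 lower in cMoPs on OP9-DLL1, and 24 higher and 29 lower on OP9, with medians of 0.08 and -0.10 on the log2 scale. Over all genes 28.2% were higher and 29.2% lower on OP9-DLL1, and 28.8% and 27.7% on OP9, so the share lower on OP9 was near that of all genes. Other folding enzymes had 15 of 22 higher and 1 lower on OP9-DLL1 and 10 higher and 2 lower on OP9. Ppic, cyclophilin C, was at 29.2 and 20.7 CPM in cMoPs on OP9-DLL1 against 0.277 and 0.204 CPM in monocytes on OP9-DLL1 (log2 6.69 ± 0.35), and Pdia5, a disulfide isomerase, was at 27.4 and 36.5 against 5.25 and 5.35 CPM (2.58 ± 0.20). Mogs, which trims glucose from new glycans, had 2.23 ± 0.18 on OP9-DLL1 and 1.82 ± 0.18 on OP9.

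The PERK branch went in both directions, with 3 of 12 genes higher and 6 lower in cMoPs on OP9-DLL1 and 3 higher and 7 lower on OP9. Atf3, a stress-induced transcription factor, was at 0.571 and 0.211 CPM in cMoPs on OP9-DLL1 against 31.5 and 27.7 CPM in monocytes on OP9-DLL1 (log2 -6.41 ± 0.44), and at 0.960 and 1.51 against 31.7 and 23.8 CPM on OP9 (-4.51 ± 0.44). Sesn2 (-1.79 ± 0.15 on OP9-DLL1 and -1.68 ± 0.15 on OP9) and Nupr1 (-1.88 ± 0.22 and -2.21 ± 0.22), both induced in stress, were lower as well. The 3 that were higher on both stromas were Eif2s1 (1.61 ± 0.10 and 0.95 ± 0.10), Atf4, the transcription factor translated when PERK is active, at 215 to 258 CPM in cMoPs against 84.9 to 140.3 CPM in monocytes (1.16 ± 0.20 on OP9), and Chac1, a target of ATF4, at 7.11 to 9.67 against 0.121 to 1.64 CPM (2.82 ± 0.76 and 4.55 ± 0.76). Oligosaccharyltransferase had 7 of 11 genes higher and 1 lower on OP9-DLL1 and 4 and 2 on OP9, with Stt3a, a catalytic subunit, at 0.77 ± 0.10 and 0.45 ± 0.10. The signal recognition particle list had 4 of 12 higher and 0 lower on OP9-DLL1 (limma-trend, 2 lower without adjustment at p under 0.05, 0 lower with voom and 2 with its weighted form) and 3 and 3 on OP9, with Srp68 at 1.11 ± 0.12 and 0.90 ± 0.12. Other degradation genes had 2 of 19 higher and 6 lower on OP9-DLL1 and 2 and 7 on OP9, with the ubiquitin-conjugating enzyme gene Ube2j1 at -0.62 ± 0.14 and -0.84 ± 0.14.

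ER to Golgi transport had 5 of 18 genes higher and 3 lower on OP9-DLL1 and 2 and 5 on OP9, with Kdelr2, a receptor that returns BiP and other escaped ER proteins, at 0.85 ± 0.13 and 0.81 ± 0.13. In the proteases and Creb3 family list 1 of 7 was lower on each stroma, Creb3, at 73.7 and 77.5 CPM in cMoPs on OP9-DLL1 against 130 and 126 CPM in monocytes on OP9-DLL1. Of 4 measured transcripts known to be cleaved by IRE1 2 were lower on each stroma, Bloc1s1 on both (-0.77 ± 0.21 on OP9-DLL1 and -1.08 ± 0.21 on OP9), with the stroma genes Pdgfrb on OP9-DLL1 and Sparc on OP9 the others.

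Among secretory cargo, 5 of 7 primary granule and lysozyme genes were higher and 2 lower in cMoPs on each stroma. They summed to 25050 and 21390 CPM in cMoPs on OP9-DLL1 and 21000 and 17680 in cMoPs on OP9, against 29020 and 23220 in monocytes on OP9-DLL1 and 38860 and 30180 in monocytes on OP9. The granule protease gene Elane was at 11920 and 9865 CPM in cMoPs on OP9-DLL1 against 135 and 151 CPM in monocytes on OP9-DLL1. The monocyte sums were almost all Lyz2, the macrophage lysozyme gene, at 3199 and 2832 CPM in cMoPs on OP9-DLL1 and 3563 and 3116 in cMoPs on OP9, against 28300 and 22580 in monocytes on OP9-DLL1 and 38230 and 29410 in monocytes on OP9. Lyz2 and Lyz1 were the 2 lower genes, and Elane, Mpo, Prtn3, Ctsg and Ms4a3 the 5 higher ones, so the sum does not describe the granule genes.

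Set beside the promoter matches, the members with an ERSE had 4 of 8 lower in monocytes on OP9-DLL1 (Hspa5, Hsp90b1, Calr and Pdia6), with a median log2 fold change of -0.45 and a range of -0.81 to 0.30. The 22 members whose promoter held none of the 3 motifs had 1 lower and a median of -0.23. The 2 members with an ERSE-II had 0 lower and a median of -0.14. The 10 with either motif had 4 lower and a median of -0.30. Manf and Ssr2, which also fell, had no promoter window and stand in none of these groups. In cMoPs the medians were 0.09 for the 8 and 0.11 for the 22. Between cell types on OP9-DLL1, 6 of the 8 were higher and 1 lower in cMoPs with a median of 0.65, against 9 higher and 5 lower of the 22 with a median of 0.21. On OP9, 2 of the 8 were higher and 1 lower (median 0.04), against 6 and 7 of the 22 (median -0.16). The difference between members with and without a match was not tested.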

How the data were processed

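Gene levels were taken from the deposited table, whose 13430 entries held 13388 genes after 42 repeated entries were dropped. Its values are log2 CPM, which the authors computed and normalized with an effective library size. Per the submitters' processing notes the build was mm10, with edgeR, limma, Salmon 1.5.2, featureCounts 2.0.3, Subread, bcl2fastq and STAR 2.7.9a as tools; the sources used here give neither their order nor an annotation release. Per the labels' protocols the kit was SMARTer Ultra Low. The same table holds the authors' deposited log2 fold changes and p-values, which were turned so that positive means higher on OP9-DLL1 or in cMoPs. A signed linear fold change, a score the authors deposited with negative values for lower genes, was not used. Whole reads could be recovered for 100.0% of values (tolerance 0.001), with 0.5 reads added in each value, and they served for depth and for voom; a read was worth 0.0151 to 0.0231 CPM.

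The test was limma-trend (limma 3.58.1, R 4.3.3) on the log2 values, 1 mean per group over 8 libraries, on the 13374 genes that reached 1 CPM in 2 or more libraries, two-sided, adjusted by Benjamini-Hochberg over all of them. It was tested on simulated data. Positions and exon lengths are from GENCODE M21 on GRCm38 (13380 genes found), promoters from RefSeq. The members and lists were chosen with earlier results of these data known. All members could be named; values in every library are given for members that passed in a coculture comparison and for the 3 of each role with the smallest adjusted p between cell types, with Dnajb9 and Herpud1 added after their values were seen. Up to 4 genes were named from each other list. Alternatives were another filter, scaling, pseudocount (1 CPM), weights, samples in the fit, a replicate block and each library left out.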

Additional observations from a re-analysis of the deposited data

How the results depend on the processing

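No member's log2 fold change that passed changed sign under any setting run. Counts of calls depended on the spread estimate and on single libraries. In monocytes the 855 genes lower or higher on OP9-DLL1 became 248 without the mean-variance trend, 536 by voom with quality weights, 306 with only the libraries compared and 13 with both OP9-DLL1 replicate 2 libraries left out. Of members, 7 were lower by limma-trend, and 0 were under each of no trend, only the libraries compared, and both replicate 2 libraries left out. Leaving out 1 library gave 162 to 2482 genes, 0 to 2 members higher and 1 to 17 lower.

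In cMoPs the 103 genes became 37 without the trend, 64 by voom, 268 by voom with quality weights, 341 with only the libraries compared, 2 with both replicate 2 libraries left out and 31 to 307 with 1 library left out, and 1 member was higher by voom with quality weights and with only the libraries compared (0 to 1 with 1 library left out). For the difference of responses the 7 genes became 1 without the trend, 24 with log2(CPM + 1), 0 with both replicate 2 libraries left out and 0 to 1123 with 1 library left out, with 0 to 13 members higher and 0 to 1 lower. Between cell types on OP9, 7 members were higher without the trend, and leaving out 1 library gave 7 to 17 higher and 7 to 14 lower. On OP9-DLL1 the counts with both replicate 2 libraries left out were 4335 genes, 12 members higher and 3 lower.

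Whether same-numbered replicates of different groups belong together is not in the labels. Correlations of same-numbered deviations were 0.0227 to 0.0891, and weak correlations over all genes do not settle it. With a replicate block 8 members were lower in monocytes (1058 genes), and the counts of genes were 156 in cMoPs, 11 for the difference, 7674 on OP9 and 7897 on OP9-DLL1. The causes of these shifts were not tested.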

Other observations

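Pdia3, a disulfide isomerase that works with calnexin and calreticulin, and Sdf2l1, a partner of the BiP cochaperones, were high in replicate 2 of both OP9-DLL1 groups. They were picked out after their values were seen. Pdia3 was at 283 and 780 CPM in cMoPs on OP9-DLL1 against 245 and 247 CPM on OP9, and at 200 and 349 CPM in monocytes on OP9-DLL1 against 157 and 174 CPM on OP9. Replicate 2 was 2.75 times replicate 1 in cMoPs on OP9-DLL1 and 1.74 times in monocytes on OP9-DLL1. Sdf2l1 was at 155 and 346 CPM in cMoPs on OP9-DLL1 against 132 and 107 CPM on OP9, and at 49.8 and 98.4 CPM in monocytes on OP9-DLL1 against 44.1 and 51.6 CPM on OP9. Its ratios were 2.23 and 1.98. Neither gene passed between OP9-DLL1 and OP9 in either cell type. Of all 13374 genes 261 (1.95%) were at least 1.5 times higher in replicate 2 of both OP9-DLL1 groups, and among 7006 genes with a mean of 10 CPM or more 45 were (0.642%). For comparison, 173 genes were so in replicate 2 of both OP9 groups, none of them a member. Pdia3 overlaps Catsper2 on the opposite strand.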
